A study of Mus musculus with 15 samples.

Results

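The 10 genes described here encode TNF, inhibitors and subunits of the transcription factor NF-kB, adhesion molecules and TGF-beta 1, and were measured in mouse liver RNA. They are Tnf, Nfkbia, Nfkbie, Tnfaip3, Nfkb1, Nfkb2, Relb, Icam1, Vcam1 and Tgfb1, taken by symbol from the 18131 genes of a table of read counts over 15 libraries. Each symbol matched 1 line of that table, and all 10 genes passed the filter on low counts. The study fed a diet with 8% NaCl (high salt, HSD) or 0.4% NaCl (normal salt, NSD) to wild-type mice (WT) and to mice labelled Sirt3-/- (KO), and its title names a hepatic inflammatory response to salt and SIRT3, a mitochondrial deacetylase, as its subject. The 4 groups WT NSD, WT HSD, KO NSD and KO HSD held 3 libraries each. A further set of wild-type libraries, whose titles carry a diet but no genotype, held 2 high salt libraries and 1 normal salt library and is called the additional wild-type set. Every mouse carries the labels male, C57BL/6 and 6 months of age, and the diets were started in mice 6 weeks old. How long they lasted differs between labels, 4 months in the protocol and 8 weeks in the sample descriptions. The sources used here do not give the Sirt3 allele, or say whether it was lost in the whole body or in the liver alone.

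TNF is a cytokine made mainly by macrophages, which in the liver are the Kupffer cells. When it binds its receptor, a kinase complex marks the IkB proteins for breakdown, and NF-kB dimers move into the nucleus and switch on target genes. Among these targets are the pathway's own inhibitors (Nfkbia, Nfkbie and Tnfaip3), some of its subunits (Nfkb1, Nfkb2 and Relb) and the adhesion molecules Icam1 and Vcam1, on which leukocytes stop at the vessel wall. Tgfb1 encodes a cytokine that restrains immune cells and drives stellate cells to make matrix.

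The stretches upstream of 4 of these genes are shown to mark where known NF-kB letters lie, or are absent, beside genes whose transcript levels are given below. The RefSeq table of promoters (build GRCm38.p6, 250 bases before to 50 bases after each start site) held 7 of the 10 genes, and the 250 bases before the start site are printed 5′ to 3′ on the strand of the gene. Capitals mark the 10-letter NF-kB consensus or the 9 letters GGAAATTCC on either strand, overlaps allowed. The genes are Tnf (chr17:35202008-35202257, minus strand), Nfkbia (chr12:55492648-55492897, minus strand), Tnfaip3 at the first of its start sites (chr10:19015411-19015660, minus strand) and Icam1 (chr9:21015690-21015939, plus strand).
Tnf: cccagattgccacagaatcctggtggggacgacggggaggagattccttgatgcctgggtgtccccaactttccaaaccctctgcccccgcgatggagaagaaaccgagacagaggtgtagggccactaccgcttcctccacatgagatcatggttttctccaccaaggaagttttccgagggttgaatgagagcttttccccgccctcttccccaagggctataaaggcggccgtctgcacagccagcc
Nfkbia: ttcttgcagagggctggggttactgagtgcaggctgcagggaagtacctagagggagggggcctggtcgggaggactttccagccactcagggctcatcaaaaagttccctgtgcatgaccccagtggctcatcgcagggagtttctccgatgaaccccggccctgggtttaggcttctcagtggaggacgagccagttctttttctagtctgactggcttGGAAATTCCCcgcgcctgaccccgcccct
Tnfaip3: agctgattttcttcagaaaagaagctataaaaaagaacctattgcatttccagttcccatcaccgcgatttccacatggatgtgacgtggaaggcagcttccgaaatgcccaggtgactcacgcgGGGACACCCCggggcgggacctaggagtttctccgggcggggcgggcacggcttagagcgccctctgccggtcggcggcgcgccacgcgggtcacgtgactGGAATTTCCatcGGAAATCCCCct
Icam1: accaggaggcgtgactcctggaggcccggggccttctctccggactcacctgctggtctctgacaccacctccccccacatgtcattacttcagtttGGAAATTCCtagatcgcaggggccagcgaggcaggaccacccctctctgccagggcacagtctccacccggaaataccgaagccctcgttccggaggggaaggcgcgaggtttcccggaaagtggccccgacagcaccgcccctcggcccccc
In Nfkbia, which encodes the inhibitor IkB-alpha, GGAAATTCCC began 29 bases before the start site. In Tnfaip3, which encodes the ubiquitin-editing inhibitor A20, matches began 125, 24 and 12 bases before the start site, the middle of which is GGAAATTCC read on the other strand. Icam1 held GGAAATTCC 153 bases before its start site and no match to the consensus. No match lay in the window of Tnf, which says only that these letters are not there. Of the 7 genes, 5 held a consensus match at one or more of their start sites (Nfkbia, Nfkbie, Tnfaip3, Nfkb2 and Tgfb1), against 8.46% of all 32851 promoters of that length in the table. The 9 letters GGAAATTCC were in 0.317% of them.

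The libraries held 15726897 to 19539406 expected counts and 12213 to 13015 genes with at least 10 counts. Sirt3 transcript was present in the labelled knockouts at levels that overlapped with the wild type, with 43.6 to 64.4 CPM (counts scaled to a library of 1e+06) in KO NSD against the wild-type 49.8 to 53.3 CPM on normal salt, and 56.6 to 68.9 CPM against 65.5 to 84.1 CPM on high salt, so the knockouts are named here by their label. A count per gene cannot tell a full transcript from one that lacks an exon. The sex label went against the data in 2 libraries: 4 Y-linked transcripts summed to 2.57 CPM in KO NSD 1 and to 1.81 CPM in KO NSD 3, against 64.1 to 109 CPM in the other 13 libraries, KO NSD 2 included. Summed levels of 5 female-biased liver genes were 1600 and 1530 CPM in those 2 libraries, 537 CPM in KO HSD 1 and 0.114 to 24.1 CPM in the rest. Libraries were also split into 2 sides by effective gene length, 6 shorter and 9 longer. The cut was set at -0.001 on a relative log2 scale on which libraries ran from -0.00375 to 0.00379. The closest libraries on either side of it were at -0.00144 and -0.00034. The shorter side held 1 library in each of the 4 groups and both high salt libraries of the additional set. The main results that rest on KO NSD are therefore also given without libraries 1 and 3, which leaves KO NSD with 1 library, assumed to vary like the other groups.

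The 10 genes lay far apart in level when compared per length. In FPKM (the deposited fragment values per length and library total), Nfkbia had the highest median over the 15 libraries, 24.2 (15.0 to 41.5), and no library of another of the 10 genes reached its lowest value. Icam1 followed with a median of 6.06 FPKM (3.46 to 12.2), then Tgfb1 with 4.86 FPKM, Nfkb1 with 3.97 FPKM and Nfkb2 with 2.47 FPKM. Vcam1 had a median of 1.63 FPKM, Nfkbie 1.07 FPKM, Relb 0.87 FPKM, Tnfaip3 0.56 FPKM and Tnf 0.2 FPKM (0.03 to 0.73). Below Nfkbia, the ranges of every pair of neighbours in this order overlapped when all 15 libraries were pooled. Within groups, Icam1 overlapped with Tgfb1 and Tgfb1 with Nfkb1 in each of the 4 groups, while Nfkb1 lay above Nfkb2, Vcam1 above Nfkbie and Tnfaip3 above Tnf in all 15 libraries. Nfkbie lay above Relb in 8 of the 15.

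Tnf (Entrez ID 21926, chr17:35199367-35202007), the ligand, was the scarcest of the 10 transcripts and had the largest difference between labelled genotypes. Gene coordinates are from RefSeq on GRCm38.p6. It stood at 0.0571, 0.116 and 0.121 CPM in WT NSD libraries 1 to 3, which were 1, 2 and 2 rounded counts. In KO NSD it stood at 1.09, 0.941 and 0.537 CPM, or 22, 17 and 11 counts. The lowest KO NSD library lay above every other library of the study, so the groups did not overlap on normal salt. On high salt, Tnf was 0.325, 0.114 and 0.278 CPM in WT HSD (6, 2 and 6 counts) and 0.161, 0.449 and 0.389 CPM in KO HSD (3, 8 and 7 counts). These groups overlapped, with KO HSD 1 inside the wild-type range and the other two above it. The additional set held 0.175 CPM on normal salt, and its high salt libraries 0.418 and 0.277 CPM.

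**Figure D1:**
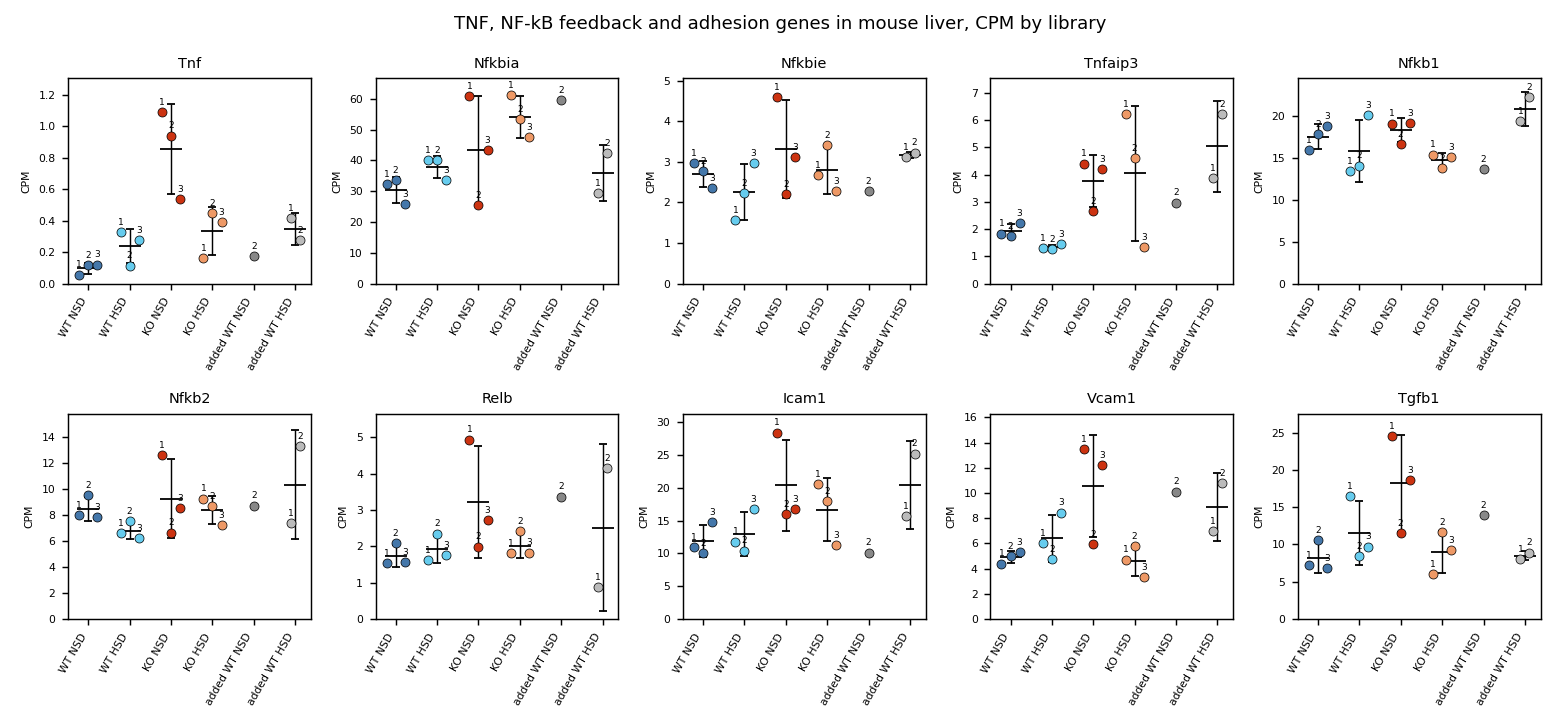
CPM of each of the 10 genes (vertical axis, linear) in every library (points, numbered by replicate), with the mean and SD of groups of 2 or 3 libraries as bars; the additional wild-type set is named "added". KO NSD 1 is the highest point of the study for 6 genes, and all 3 KO NSD libraries of Tnf (0.537 to 1.09 CPM) lie above the rest.

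On normal salt, the difference in Tnf was 3.05 ± 0.61 on the log2 scale (SE; labelled knockout against wild type), with an adjusted p of 0.0513 in edgeR's quasi-likelihood test with Benjamini-Hochberg adjustment, just short of the threshold of 0.05. Summed over libraries, 50 counts stood against 5, a ratio of 9.37 with an exact 95% interval of 3.76 to 30.1 that covers counting error only. The interval excludes a ratio of 1, while the test over libraries, which also takes in the spread between them, did not pass. Tnf passed with all 15 libraries in the fit (adjusted p = 0.0414), with the 2 groups fitted alone (0.0442), with the effective-length side as a covariate (0.039) and in DESeq2 (0.0129). It did not pass in limma-voom (0.0814) or with the replicate number as a block (0.0693). Nor did it pass with relative log expression size factors (0.0521) or without the count filter (0.052). Over these alternatives the adjusted p ranged from 0.0129 to 0.0814. Without KO NSD 1 and 3 the log2 difference was 3.17 with an adjusted p of 0.378, so KO NSD 2, the library with Y-linked transcripts, differed as much on its own. Without KO NSD 2 it was 2.99 with an adjusted p of 0.0382. Of the 6 fits that each left out a single library, Tnf passed in that one alone. Over those 6 fits the adjusted p ran from 0.0382 to 0.197, and the log2 difference from 2.79 to 3.29. Within the longer effective-length side it was 3.44 (adjusted p = 0.122), and the single pair of libraries on the shorter side differed by 1.50. On high salt, the difference in Tnf between labelled genotypes was 0.44 ± 0.57 (adjusted p = 1.0).

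Nfkbia (Entrez ID 18035, chr12:55489409-55492647), an early NF-kB target whose product holds NF-kB in the cytoplasm, overlapped between labelled genotypes on normal salt. It stood at 32.2, 33.7 and 25.7 CPM in WT NSD and at 60.8, 25.6 and 43.4 CPM in KO NSD, where KO NSD 2 was the lowest library of the study. It stood at 40.0, 40.1 and 33.7 CPM in WT HSD and at 61.3, 53.4 and 47.5 CPM in KO HSD, where all 3 labelled knockout libraries lay above the wild type. The log2 differences were close in size on both diets, 0.52 ± 0.26 between the normal salt groups (adjusted p = 0.396) and 0.51 ± 0.25 between the high salt groups (adjusted p = 1.0). In the additional set, the normal salt library (59.5 CPM) lay above both high salt libraries (29.5 and 42.4 CPM), the opposite order to that of WT NSD and WT HSD. Nfkbie (Entrez ID 18037, chr17:45555700-45563169), which encodes the related inhibitor IkB-epsilon, ranged from 1.57 CPM in WT HSD 1 to 4.60 CPM in KO NSD 1. Its groups overlapped in each of the 4 contrasts of diet and labelled genotype, with log2 differences from -0.26 to 0.31.

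Tnfaip3 (Entrez ID 21929, chr10:19000910-19015410) was the inhibitor that differed most between labelled genotypes, and its high salt difference depended on single KO HSD libraries. It stood at 1.83, 1.74 and 2.23 CPM in WT NSD and at 4.40, 2.66 and 4.20 CPM in KO NSD, which did not overlap. On high salt it stood at 1.30, 1.26 and 1.44 CPM in WT HSD and at 6.21, 4.60 and 1.33 CPM in KO HSD. KO HSD 1 and 2 were more than 3 times the highest wild-type library of that diet, while KO HSD 3 lay inside the wild-type range. On normal salt the log2 difference was 0.97 ± 0.43 (adjusted p = 0.333). On high salt it was 1.59 ± 0.44, with an unadjusted p-value of 0.00338 and an adjusted p of 0.866 in edgeR. Without KO HSD 3 the high salt difference was 2.01 ± 0.30 and passed the test (adjusted p = 0.0492), where 7 genes of all were called. Leaving out the library that lay apart also narrows the spread, so this fit adds no separate evidence. Without KO HSD 1, the highest library of its group, the high salt difference was 1.15 and did not pass. Without KO NSD 1 and 3 the normal salt difference was 0.44. The additional set reached as high as the labelled knockouts, with 2.97 CPM on normal salt and high salt values of 3.86 and 6.22 CPM, all 3 above every wild-type library of the main groups.

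Of the subunits, Nfkb1 and Nfkb2 differed less than the inhibitors between labelled genotypes on normal salt, with log2 differences of 0.07 and 0.14. Relb differed more than Nfkbia and Nfkbie. Nfkb1 (Entrez ID 18033, chr3:135584655-135691969), which encodes p105 and its product p50, had the lowest ratio of highest to lowest library among the 10 genes, with 13.4 to 22.3 CPM over all libraries. On normal salt it stood at 15.9, 17.9 and 18.8 CPM in the wild type and at 19.1, 16.7 and 19.2 CPM in the labelled knockout. On high salt it stood at 13.4, 14.1 and 20.1 CPM in the wild type and at 15.4, 13.8 and 15.1 CPM in the labelled knockout. Each KO HSD library lay below each KO NSD library, by a log2 difference of -0.32 ± 0.17 that did not pass the test (adjusted p = 0.702). Nfkb2 (Entrez ID 18034, chr19:46300994-46312400), which encodes p100 and its product p52 of the alternative pathway, ranged from 6.22 CPM in WT HSD 3 to 13.3 CPM in a high salt library of the additional set. Each WT HSD library (6.61, 7.50 and 6.22 CPM) lay below each WT NSD library (8.00, 9.50 and 7.84 CPM), with a log2 difference of -0.31 ± 0.23 (adjusted p = 1.0). Relb (Entrez ID 19698, chr7:19606217-19629438), the partner of p52, stood at 4.94, 1.99 and 2.73 CPM in KO NSD and between 1.54 and 2.41 CPM in the other 9 libraries of the 4 groups. KO NSD 1 was the highest and KO NSD 2 lay inside the wild-type range, and the log2 difference on normal salt was 0.91 ± 0.34 (adjusted p = 0.23), or 0.19 without KO NSD 1 and 3. The widest spread of Relb within a group was in the additional set, where the high salt libraries held 0.883 and 4.15 CPM.

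Of the adhesion molecules, Icam1 (Entrez ID 15894, chr9:21015940-21028814), a ligand of leukocyte integrins found on endothelium and other cells, stood at 10.9, 10.0 and 14.7 CPM in WT NSD and at 28.4, 16.0 and 16.7 CPM in KO NSD. The groups did not overlap, KO NSD 1 was the highest of all libraries, and the log2 difference was 0.79 ± 0.29 (adjusted p = 0.215), or 0.42 without KO NSD 1 and 3. On high salt, 11.8, 10.4 and 16.7 CPM in WT HSD overlapped with 20.6, 18.0 and 11.3 CPM in KO HSD. KO HSD 3 was low for Icam1 as it was for Tnfaip3. Vcam1 (Entrez ID 22329, chr3:116110020-116129688), which binds the integrin VLA-4 on lymphocytes and monocytes, stood at 4.40, 4.98 and 5.31 CPM in WT NSD and at 13.5, 5.92 and 12.2 CPM in KO NSD. KO NSD 1 and 3 were more than 2 times the highest wild-type library of that diet, and KO NSD 2 lay just above it. It stood at 6.02, 4.75 and 8.45 CPM in WT HSD and at 4.71, 5.78 and 3.33 CPM in KO HSD. The labelled knockouts thus lay higher than the wild type on normal salt, by 1.12 ± 0.32 (adjusted p = 0.113), and overlapped with it on high salt, at -0.48 ± 0.32 (adjusted p = 1.0).

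Tgfb1 (Entrez ID 21803, chr7:25687002-25705077) had a pattern over the libraries like that of Vcam1. It stood at 7.20, 10.6 and 6.81 CPM in WT NSD and at 24.5, 11.5 and 18.6 CPM in KO NSD, which did not overlap. It stood at 16.5, 8.42 and 9.70 CPM in WT HSD and at 6.05, 11.6 and 9.27 CPM in KO HSD, which did. Within KO NSD, library 1 was again the highest and library 2 was close to WT NSD 2. On normal salt the log2 difference was 1.16 ± 0.34 (adjusted p = 0.119), and in the high salt groups it was -0.37 ± 0.34 (adjusted p = 1.0). The call of both genes turned on which labelled knockout libraries were used: without KO NSD 2, Vcam1 was at 1.40 (adjusted p = 0.0242) and Tgfb1 at 1.40 (adjusted p = 0.046), and without KO NSD 1 and 3, Vcam1 was at 0.26 (adjusted p = 0.956) and Tgfb1 at 0.47 (adjusted p = 0.93). DESeq2 called both, with adjusted p-values of 0.0295 and 0.0317. Within the longer effective-length side Vcam1 was at 1.03 (adjusted p = 0.385) and Tgfb1 at 1.00 (adjusted p = 0.441), and the single pair of libraries on the shorter side differed by 1.18 and 1.43.

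Over the 10 genes together, none passed the test between labelled genotypes on normal salt, where 54 of 13051 genes did (0.414%; 31 higher, 0.238%, and 23 lower, 0.176%). At an unadjusted p under 0.05 in edgeR, 6 of the 10 were higher (Tnf, Tnfaip3, Relb, Icam1, Vcam1 and Tgfb1) and none lower, against 8.64% of all genes higher. DESeq2 called 3 of them (Tnf, Vcam1 and Tgfb1), with 660 genes called in all, and limma-voom called none. All 10 log2 differences were above 0, as were 51.2% of all genes, with a median of 0.85 against 0.01. In 5 genes (Tnf, Tnfaip3, Icam1, Vcam1 and Tgfb1) every KO NSD library lay above every WT NSD library, against 9.94% of all genes. Within KO NSD, library 1 was the highest for 9 of the 10 genes and library 2 the lowest for 9 of the 10. Without libraries 1 and 3, 6 of the 10 differences were above 0 and 4 below, with a median of 0.22 against -0.05 over all genes. For the 5 genes whose groups did not overlap, KO NSD 2 lay above every WT NSD library by definition. Of the other genes, it lay within the wild-type range for 2 (Nfkb1 and Relb) and below it for 3 (Nfkbia, Nfkbie and Nfkb2). The mouse sex that the transcripts point to and the labelled genotype cannot be told apart in KO NSD 1 and 3.

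**Figure D2:**
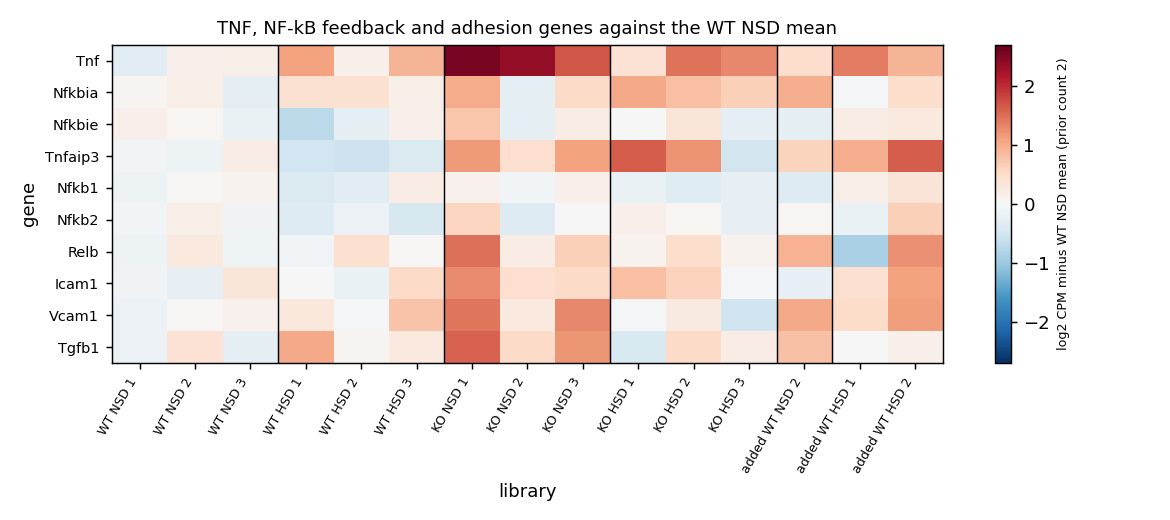
Difference of log2 CPM (prior count 2) from the WT NSD mean, for each of the 10 genes (vertical axis) in each library (horizontal axis, groups separated by lines); red is higher and blue lower. KO NSD 1 is red for 9 genes and near 0 for Nfkb1, while KO NSD 2 is strongly red for Tnf alone, at 2.38.

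On high salt, none of the 10 genes passed between labelled genotypes in edgeR, and none of the 13051 did (0.0%), with a smallest adjusted p of 0.221. Tnfaip3 alone had an unadjusted p under 0.05, against 2.61% of all genes higher. DESeq2 called 29 genes and none of the 10. Nfkbia alone was higher in every KO HSD library than in every WT HSD library, against 4.09% of all genes. The log2 differences were above 0 for 7 of the 10 and for 47.2% of all genes, with a median of 0.30 against -0.01 over all genes.

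Between diets in the wild type, none of the 10 genes passed the test, none had an unadjusted p under 0.05 in edgeR, and no gene of all 13051 was called (0.0%), although 584 (4.47%) had an unadjusted p under 0.05. DESeq2 called 9 genes and limma-voom none, and neither called any of the 10. Every WT HSD library of Nfkbia lay above every WT NSD library (3.82% of all genes), though at 33.7 CPM the closest pair was almost level, and every WT HSD library of Tnfaip3 and Nfkb2 lay below (4.86%). The log2 difference was 0.32 ± 0.26 for Nfkbia and -0.53 ± 0.45 for Tnfaip3. Tnf differed most, at 1.26 ± 0.69 (adjusted p = 1.0), on 14 counts against 5, a ratio of 2.64 with an exact 95% interval of 0.899 to 9.37 that includes 1. With 6 genes above 0 (53.7% of all genes) and 4 below, the median was 0.14 against 0.02 over all genes.

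Between diets in the labelled knockout, the largest differences were in the opposite direction. The log2 difference of high against normal salt was -1.35 ± 0.50 for Tnf (adjusted p = 0.542), on 18 counts against 50, -1.20 ± 0.32 for Vcam1 (adjusted p = 0.437) and -1.03 ± 0.34 for Tgfb1 (adjusted p = 0.486). These 3 had an unadjusted p under 0.05 in edgeR, against 5.49% of all genes lower. None of the 10 was called and none of all genes (0.0%), while DESeq2 called 50 genes and none of the 10. Every KO HSD library lay below every KO NSD library for Tnf, Nfkb1 and Vcam1, against 5.75% of all genes. Of the 10, 8 were below 0, as were 50.4% of all genes, and Nfkbia (0.31 ± 0.25) and Tnfaip3 (0.10 ± 0.42) were above it. Without KO NSD 1 and 3, the difference was -1.47 for Tnf, -0.34 for Vcam1 and -0.34 for Tgfb1, and 4 of the 10 were below 0. This contrast and the one between labelled genotypes on normal salt share the KO NSD libraries.

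The difference of the salt effects between labelled genotypes was tested directly. It was -2.61 ± 0.85 for Tnf, -1.60 ± 0.46 for Vcam1 and -1.53 ± 0.48 for Tgfb1, each with an adjusted p of 0.835 in edgeR. No gene of all 13051 was called (0.0%), these 3 were those of the 10 with an unadjusted p under 0.05, and 3.38% of all genes were so on the lower side. The other 7 lay between -0.83 and 0.63. DESeq2 called 10 genes and none of the 10 described here. Without KO NSD 1 and 3 the difference was -2.72 for Tnf, -0.73 for Vcam1 and -0.84 for Tgfb1.

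**Figure D3:**
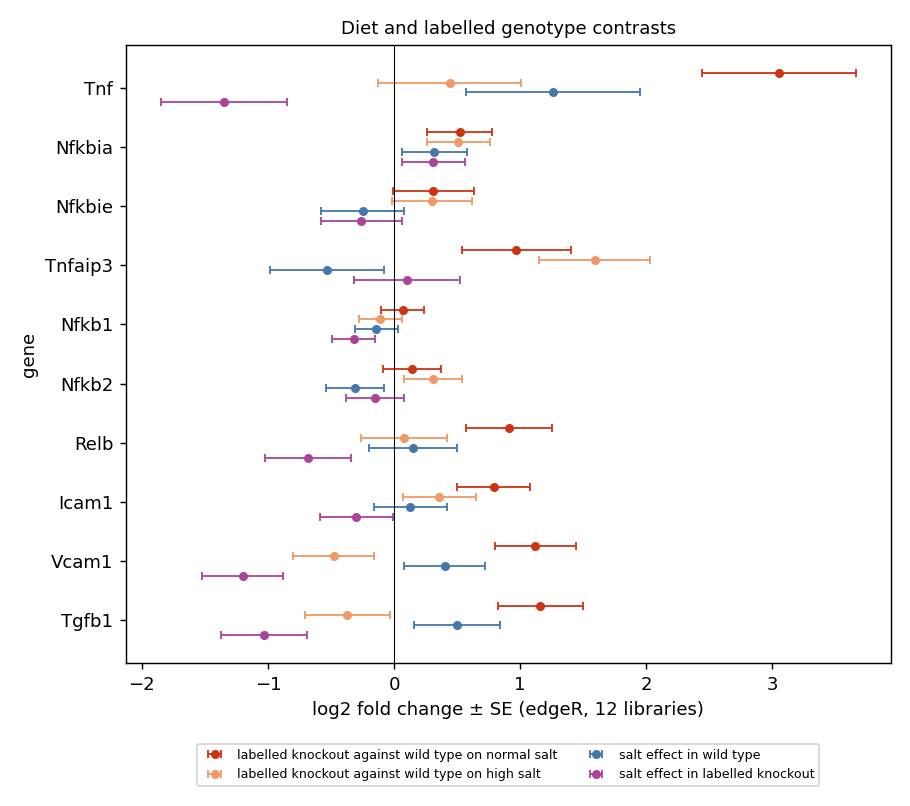
Log2 fold change with its SE (horizontal axis; edgeR fit of 12 libraries) for each of the 10 genes (vertical axis) in 4 contrasts of diet and labelled genotype. For Tnf, Vcam1 and Tgfb1 the labelled knockout against the wild type on normal salt lies right of 0 (3.05, 1.12 and 1.16) and the salt effect in the labelled knockout left of it (-1.35, -1.20 and -1.03); these contrasts share the KO NSD libraries.

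In the additional wild-type set, whose single normal salt library took its spread from the other groups of the fit, Icam1 was higher on high salt by 1.03 and Nfkb1 by 0.60, with unadjusted p-values of 0.0443 and 0.0358 in edgeR, against 5.09% of all genes higher at that limit. None of the 10 genes passed after adjustment, and 3 of 13864 genes did, all lower (0.0216%). High salt libraries of Icam1 held 15.7 and 25.2 CPM against 10.1 CPM, and those of Nfkb1 19.4 and 22.3 CPM against 13.7 CPM. Nfkbia was at -0.72, on the opposite side of 0 from the 0.32 of the main wild-type groups, and the test of that difference gave -1.04 with an unadjusted p of 0.0386, not called after adjustment (0 of all genes, 0.0%). Both high salt libraries of the set lay on the shorter effective-length side and the normal salt library on the longer, so diet and side cannot be told apart there.

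Among other genes of the pathway, given from lists of known members, a single gene passed the test between labelled genotypes on normal salt. This was Itgam, which encodes the CD11b chain of an integrin of neutrophils and macrophages that binds ICAM1. It ranged from 0.869 to 0.965 CPM in WT NSD and from 3.38 to 5.73 CPM in KO NSD. It rose by 2.37 ± 0.30 (adjusted p = 0.00784), and without KO NSD 1 and 3 the difference was 1.86 ± 0.38 (adjusted p = 0.247), where no gene of all was called. Of the 13 other adhesion genes and leukocyte ligands tested, 12 were above 0 and 8 had an unadjusted p under 0.05 on the higher side, with a median of 0.90, against 8.64% of all genes under that limit on the higher side. When KO NSD 1 and 3 were left out, 10 of the 13 were above 0 and 4 were under that limit on the higher side, against 3.78% of all genes, with a median of 0.65. Among 9 other TNF-family ligands and receptors 0 passed, and 3 had an unadjusted p under 0.05, all higher (8.64% of all genes). The smallest p was that of Ltb, which encodes lymphotoxin beta, at 1.61 ± 0.34 (adjusted p = 0.0592). Of 13 genes of interleukin-1 and Toll-like receptor input, 0 passed, and the smallest p was that of Cd14, the co-receptor for endotoxin, at 2.00 ± 0.47 (adjusted p = 0.0737). Without KO NSD 1 and 3, Ltb was at 1.31 and Cd14 at 1.68.

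Deeper in the pathway each list held genes on both sides of 0, in differing shares. Of 10 receptor adaptors and ubiquitin enzymes 5 were above 0 and 5 below, with the smallest p for Traf1, itself an NF-kB target, at 1.91 ± 0.56 (adjusted p = 0.122). Of 10 genes of the IKK complex and its upstream kinases 3 were above 0 and 7 below, with the smallest p for the kinase gene Map3k8 at 0.93 ± 0.35 (adjusted p = 0.236). Of 6 other REL subunits and IkB family genes 3 lay on each side, with the smallest p for Nfkbid at 1.62 ± 0.54 (adjusted p = 0.171). Among 10 other negative feedback genes the smallest p was that of Tnfaip8l2, at 1.47 ± 0.59 (adjusted p = 0.263). Of 13 other NF-kB target genes 9 were above 0, 5 had an unadjusted p under 0.05 on the higher side (8.64% of all genes) and 1 on the lower, and Ier3 had the smallest p, at 1.70 ± 0.46 (adjusted p = 0.103). Of 15 other TGF-beta pathway genes 6 were above 0 and 9 below, and Smad3, which carries the TGF-beta signal to the nucleus, had the smallest p, at -0.47 ± 0.20 (adjusted p = 0.313). None of these lists held a gene that passed the test. Without KO NSD 1 and 3, Traf1 was at 0.94, Map3k8 at 0.70 and Nfkbid at 1.47. In the same fit Tnfaip8l2 was at 0.35, Ier3 at 1.15 and Smad3 at -0.59. The median of the other NF-kB target genes was 0.44 with all libraries and 0.30 without those 2.

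Between diets in the labelled knockout no gene of any pathway list passed. Of the other adhesion genes and leukocyte ligands, 8 of 13 had an unadjusted p under 0.05 on the lower side, against 5.49% of all genes, with Itgam the smallest at -1.16 ± 0.28 (adjusted p = 0.428). Of these 13, 0 did so without KO NSD 1 and 3. Of the TGF-beta pathway genes 3 of 15 did so with all libraries, with Ltbp3, which encodes a protein that stores latent TGF-beta, at -0.85 ± 0.28 (adjusted p = 0.479). The smallest p of the receptor-input list was that of Il1rap, a subunit of the interleukin-1 receptor, at 0.53 ± 0.15 (adjusted p = 0.437). In the remaining lists they were those of Ltb (-0.75 ± 0.32), Traf3 (-0.25 ± 0.20), Chuk (0.33 ± 0.25), Nfkbid (-1.24 ± 0.52), Tnfaip8l2 (-1.23 ± 0.58) and Ier3 (-1.05 ± 0.45), and none of these passed (adjusted p from 0.565 to 0.89).

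Markers of immune cells moved with the same libraries. Over 15 Kupffer cell and macrophage markers, summed levels were 322 to 342 CPM in WT NSD, 253 to 520 CPM in WT HSD, 435 to 1280 CPM in KO NSD and 299 to 689 CPM in KO HSD. Over 12 neutrophil markers they were 13.4 to 26.5 CPM in WT NSD, 13.8 to 20.0 CPM in WT HSD, 93.1 to 251 CPM in KO NSD and 26.8 to 74.6 CPM in KO HSD. In both lists KO NSD 1 was the highest of all libraries and KO NSD 2 the lowest of its group. Of the 10 genes, KO NSD 1 was the highest of all libraries for 6. KO NSD 2 was the lowest of its group for 9, with Tnf the exception. Of the 12 neutrophil markers 6 passed as higher on normal salt in the labelled knockout (S100a8, S100a9, Retnlg, Mmp8, Ltf and Fpr1), against 0.238% of all genes. Their log2 differences ran from 2.60 ± 0.42 for Fpr1 to 5.64 ± 1.03 for Ltf, with adjusted p-values from 0.00784 to 0.0466 in edgeR. These calls are those of the fit with all 3 KO NSD libraries. Without KO NSD 1 and 3, in a fit with 1 KO NSD library, the differences of these 6 genes were 1.77 for Fpr1 to 4.90 for Ltf, given as sizes alone. In that fit 11 of the 12 markers were above 0, with a median of 3.45. Of the 15 macrophage markers none passed and 13 had an unadjusted p under 0.05 on the higher side (8.64% of all genes), with Lyz2 at 1.84 ± 0.42 (adjusted p = 0.0726). With KO NSD 1 and 3 left out, 14 of the 15 were above 0 and 0 had an unadjusted p under 0.05, with a median of 0.56. Ptprc, the marker of all leukocytes, ranged from 4.0 to 5.77 CPM in WT NSD and from 7.36 to 12.1 CPM in KO NSD.

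**Figure D4:**
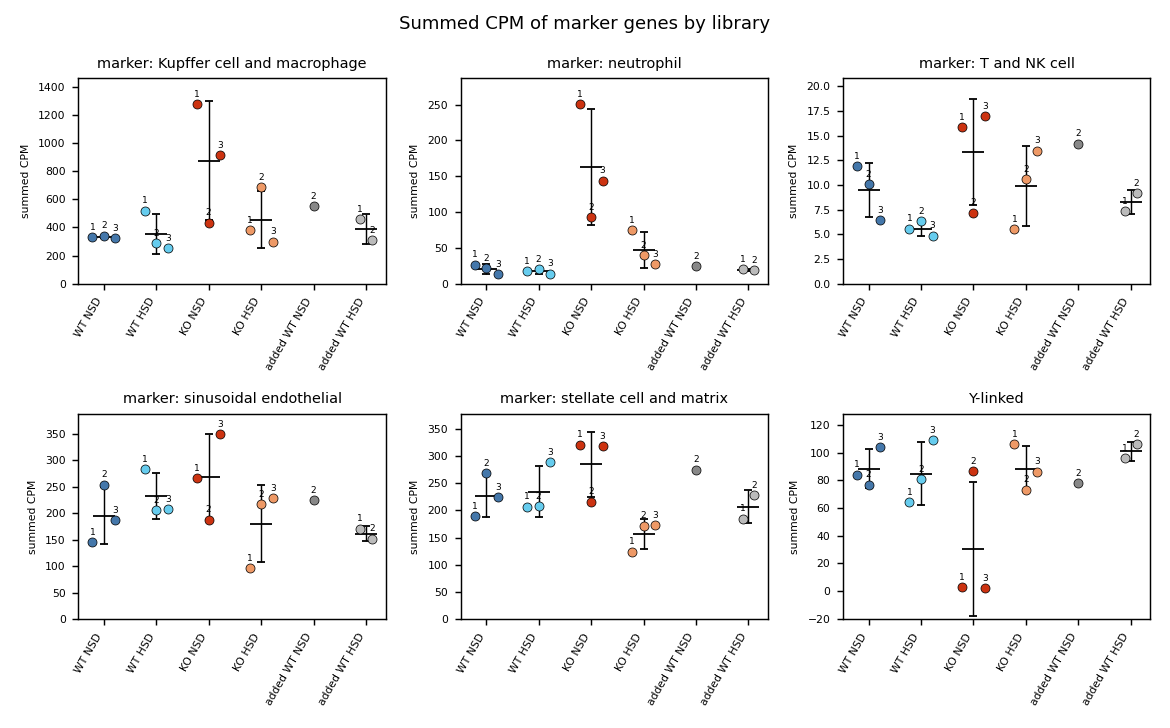
Summed CPM of 5 marker lists and of 4 Y-linked genes (vertical axes, linear) in every library (points, numbered by replicate), with group mean and SD as bars. Neutrophil markers are highest in the 3 KO NSD libraries (93.1 to 251 CPM), and Y-linked transcripts are near 0 in KO NSD 1 and 3.

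Summed markers of other cell types overlapped between WT NSD and KO NSD, apart from those of B and plasma cells and of hepatocytes, which were higher in each KO NSD library. Sinusoidal endothelial markers (10 genes), which mark cells that carry Icam1 and Vcam1, had sums of 146 to 254 CPM in WT NSD, 206 to 283 CPM in WT HSD, 188 to 350 CPM in KO NSD and 95.8 to 228 CPM in KO HSD. Stellate cell and matrix markers (12 genes) had sums of 190 to 268 CPM in WT NSD, 207 to 289 CPM in WT HSD, 216 to 321 CPM in KO NSD and 124 to 173 CPM in KO HSD. For T and NK cell markers (11 genes), WT NSD sums were 6.45 to 11.9 CPM and KO NSD sums 7.2 to 17.0 CPM. Cholangiocyte markers (6 genes) summed to 44.3 to 74.4 CPM and 50.3 to 52.2 CPM in the same groups, and B and plasma cell markers (7 genes) to 9.47 to 22.2 CPM and 22.4 to 45.3 CPM. In KO HSD, T and NK cell markers summed to 5.52 to 13.5 CPM, cholangiocyte markers to 31.2 to 46.9 CPM and B and plasma cell markers to 8.14 to 14.4 CPM. Between diets in the labelled knockout, the sums of neutrophil, stellate, cholangiocyte and B and plasma cell markers were lower in each KO HSD library than in each KO NSD library. No marker of these lists was at 0 in every library of a group, apart from Camp in the lone normal salt library of the additional set. Hepatocyte markers (8 genes), which fit the tissue label, had sums of 117000 to 123000 CPM in WT NSD, 98500 to 126000 CPM in WT HSD, 129000 to 147000 CPM in KO NSD and 112000 to 150000 CPM in KO HSD. The part of these cell types in the levels of the 10 genes was not tested, and in bulk tissue a change in the number of cells of a type and a change in RNA per cell cannot be told apart.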

How the data were processed

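RNA from mouse liver was purified with oligo(dT) beads per the labels' protocol. The authors deposited expected counts per gene (estimated by RSEM, which shares reads between genes) in a table of 15 libraries, and FPKM values beside them in a file per library. Bowtie2 2.2.5, RSEM 1.2.8 and the build mm10 are named in the submitters' processing notes. Annotation and strandedness were not given in the sources used here, so Nfkb2, which overlaps Psd by 316 bases in RefSeq, could hold some of its reads. No sample column was left unmapped (0 columns), and 18009 of 18131 genes matched RefSeq GRCm38.p6.

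Expected counts were rounded. The 12 libraries of the 4 groups entered a fit of 4 group means with edgeR 4.0.16 in R 4.3.3 (filterByExpr, TMM factors, quasi-likelihood test with robust dispersion), with Benjamini-Hochberg adjustment over 13051 genes and a threshold of 0.05. The additional set was tested with all 15 libraries and 13864 genes. The biological coefficient of variation was 0.272 and 0.273 in these fits. CPM were scaled by TMM over 15 libraries. The procedure was tested on simulated counts. Alternatives were DESeq2 1.42.0, limma-voom (limma 3.58.1), relative log expression size factors, no count filter, the replicate block, other sets of libraries and leaving out each library.

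Named beside the 10 genes are, per pathway list, genes past the threshold or else the one with the smallest p in the contrasts between labelled genotypes on normal salt and between diets in the labelled knockout. The genes that followed Tnf or the mean of the 10 genes most closely over libraries are also named, except for a gene that is not reported here. The 10 genes and the lists were chosen with earlier results of these data known. Deviations of same-numbered WT NSD and WT HSD libraries from their group means had correlations of 0.189, 0.108 and 0.483. The last is that of the libraries numbered 3, both on the shorter effective-length side. The labels used here give no pairing, so the main test used none. With the replicate number as a block, 0 genes were called between diets in the wild type in the fit of 12 libraries. In no other pair of groups did all 3 correlations exceed 0.1. P-values measure only the spread between these libraries, which may be technical, since the labels do not say that they came from separate animals. In KO NSD, Y-linked transcripts summed to 86.7 CPM in library 2 and to 2.57 and 1.81 CPM in libraries 1 and 3. Those 3 libraries therefore did not all come from 1 animal. The smallest p of an exact two-sided permutation of 3 libraries against 3 would be 0.1.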

Additional observations from a re-analysis of the deposited data

How the results depend on the processing

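Alternatives left 589 of the values that do not leave out a single library on their side of 0 and of the threshold, 6 passed the threshold that had not, and 32 changed sign; the cause was not tested. Tnf rests on 1 to 22 counts per library. The split by effective length, the 6 wild-type libraries alone and their block were chosen after seeing the data. The additional set without its lone normal salt library was not run.

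Genes called between labelled genotypes on normal salt numbered 54, and 660 in DESeq2, 27 in limma-voom, 98 with the replicate block, 106 with 15 libraries, 170 with the effective-length covariate, 173 with the 2 groups alone, 0 without KO NSD 1 and 3, and 5 to 420 leaving out one library. Of the 10 genes, 0 were called, and 3 in DESeq2, 1 each with 15 libraries, the covariate and the 2 groups alone, and 0 to 3 leaving out one library. On high salt, 0 genes became 29 in DESeq2 and 0 to 7 leaving out one library (0 to 1 of the 10). In the wild type, 0 became 9 in DESeq2, 32 on the longer side, 1 with the 6 libraries and their replicate block, and 0 to 10 leaving out one library. In the labelled knockout, 0 became 50 in DESeq2, 1 with the replicate block and 0 to 21 leaving out one library. For the difference of salt effects, 0 became 10 in DESeq2, 14 on the longer side and 0 to 8 leaving out one library. In the additional set 3 became 30 in DESeq2, 6 in limma-voom, 0 with the covariate and 1 leaving out one library, and its difference from the main set went from 0 to 36 in DESeq2 and 0 to 91 leaving out one library. The replicate block changed no other call. Same-numbered libraries shared a number, and the labels used here give no pairing between them.

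Signs of log2 differences changed as follows. Without KO NSD 1 and 3, on normal salt Nfkbia was at -0.27, Nfkbie at -0.30, Nfkb1 at -0.08 and Nfkb2 at -0.36; between diets in the labelled knockout Nfkbie was at 0.35, Nfkb2 at 0.36, Relb at 0.04 and Icam1 at 0.07; and in the difference of salt effects Nfkbia was at 0.78 and Nfkbie at 0.61. In that difference both were at 0.01 with relative log expression factors, no filter or DESeq2, at 0.07 and 0.06 in limma-voom, and Nfkbia at 0.02 with the replicate block. On the longer side Nfkbie was at 0.35 in the difference, Tnfaip3 at -0.24 between diets in the labelled knockout (-0.13 in limma-voom) and Nfkb1 at 0.07 between labelled genotypes on high salt. On the shorter side Tnf was at -0.53 and Nfkbie at -0.14 on high salt, Nfkbie at 0.32 and Nfkb1 at 0.10 in the wild type, Nfkb2 at 0.12 and Icam1 at 0.29 in the labelled knockout, and Nfkbia at 0.11 and Icam1 at 0.12 in the difference. The covariate put Tnf at 0.20 in the difference between wild-type sets.

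Leaving out one library, values that changed sign ranged as follows: in the wild type Relb from -0.02 to 0.30 and Icam1 from -0.10 to 0.30; in the labelled knockout Nfkbie from -0.48 to 0.06, Nfkb2 from -0.34 to 0.14, Icam1 from -0.46 to 0.02 and Tnfaip3 from -0.32 to 0.52. On normal salt Nfkbie ranged from -0.01 to 0.53 and Nfkb2 from -0.15 to 0.33. On high salt Relb ranged from -0.07 to 0.25 and Nfkb1 from -0.22 to 0.11. In the difference of salt effects Nfkbia ranged from -0.28 to 0.33, Nfkbie from -0.23 to 0.31, Nfkb1 from -0.29 to 0.06 and Nfkb2 from -0.03 to 0.46. In the additional set Relb ranged from -1.93 to 0.30, Vcam1 from -0.54 to 0.09 and Nfkb2 from -0.24 to 0.61, and in its difference from the main set Tnf from -0.61 to 0.03 and Relb from -2.07 to 0.16.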

Other observations

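Across the 15 libraries, the genes whose log2 CPM followed Tnf most closely, of 13854 compared, were 6430548M08Rik (Pearson r = 0.90), Pla2g7 (0.89), Tfec (0.87), Plcb2 (0.85) and Col13a1 (0.85). Among those that followed the mean of the 10 genes most closely were Rassf2 (0.91), Ano6 (0.91), Soat1 (0.89) and Clec4n (0.89). Among the 10 genes, Icam1 and Tnfaip3 were closest (r = 0.76), then Relb and Nfkb2 (0.73), and Nfkb1 and Nfkbia were farthest apart (-0.34). These values are descriptions over libraries that share group, sex-typed and effective-length differences.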
